A study of Mus musculus with 7 samples.

Results

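Type I collagen and the proteins laid down with it are the bulk product of an osteoblast. Their 10 genes Col1a1, Col1a2, Sparc, Bgn, Ibsp, Spp1, Alpl, Bglap, Bglap2 and Bglap3 were taken by name from the 23725 gene IDs counted in sorted mouse osteoblasts. All 10 were among the IDs, and 4 of them (Col1a1, Col1a2, Sparc and Ibsp) had enough counts to be tested. The mice were male C57BL/6 animals carrying KrasLSL-G12D/WT and p53Flox/Flox, alleles that change only where Cre recombinase acts, together with Ocn-GFP, a green fluorescent reporter of osteocalcin expression. In 4 mice, lung tumors had been started by an adenovirus with Cre given into the airways, and the animals were examined 14 weeks later. The controls were 3 tumor-free mice of the same genotype, matched by litter per the series' design text; the sources used here do not give what they received, nor the promoter that drives the reporter. Age was 31 weeks in 5 mice and 23 weeks in 2, replicate 4 of the tumor-bearing and replicate 3 of the tumor-free group. From each mouse 2000 GFP-positive cells negative for CD45, CD31 and Ter119 were sorted from a pool of digested bone and lineage-depleted marrow, and transcript 3′ ends were counted in 1 library per mouse.

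Type I collagen is a triple helix of α1 chains, encoded by Col1a1, and α2 chains, encoded by Col1a2, and its fibrils form the scaffold on which bone mineral is deposited. Sparc (osteonectin) and the small leucine-rich proteoglycan biglycan (Bgn) bind collagen and influence how its fibrils assemble. Bone sialoprotein (Ibsp) and osteopontin (Spp1) are acidic, integrin-binding phosphoproteins of the mineralizing matrix, tissue-nonspecific alkaline phosphatase (Alpl) removes pyrophosphate, which blocks mineral growth, and osteocalcin (Bglap and Bglap2) is a vitamin K-dependent protein secreted by mature osteoblasts.

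The osteocalcin genes lie side by side on mouse chromosome 3 and are so alike that counts of their 3′ ends can hardly be divided among them. The last 150 coding bases of each, stop codon included, are shown here 5′ to 3′ from the minus strand of mm10 (GENCODE vM21; each spans 2 exons), with capitals at the 8 positions where the genes differ. They are printed because every statement on single osteocalcin genes depends on these few bases.
Bglap, chr3:88383635-88383990: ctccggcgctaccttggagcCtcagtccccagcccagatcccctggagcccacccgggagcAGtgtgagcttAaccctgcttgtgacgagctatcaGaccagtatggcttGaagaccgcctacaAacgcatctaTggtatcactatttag
Bglap2, chr3:88377870-88378225: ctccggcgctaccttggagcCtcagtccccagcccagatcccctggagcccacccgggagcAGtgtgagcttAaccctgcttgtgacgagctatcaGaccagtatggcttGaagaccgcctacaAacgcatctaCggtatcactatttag
Bglap3, chr3:88368756-88369111: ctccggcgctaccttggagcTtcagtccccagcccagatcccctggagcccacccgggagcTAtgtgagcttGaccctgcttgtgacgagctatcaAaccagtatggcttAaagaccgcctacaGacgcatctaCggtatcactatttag

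Bglap and Bglap2 differed at 1 of the 150 positions (99.3% identity), and Bglap and Bglap3 at 8 (94.7%). In the last 300 bases of its transcript, 90.9% of the 25-base words of Bglap also occurred in Bglap2 or Bglap3, against 94.6% for Bglap2 and 49.3% for Bglap3. The 3 genes are therefore given below both singly and as a sum. Among the other members, exons overlapped those of another annotated gene for Spp1 only (Gm42793, on the same strand).

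Upstream sequence of 8 members, in 12 windows ending at annotated starts, was at hand in RefSeq (GRCm38.p6, the assembly of mm10). The 250 bases before the start are shown for Bglap, the osteocalcin gene for which the reporter is named, and for Ibsp, a bone-restricted gene that had counts in every library. Capitals mark the TATA box letters (TATAAA, or TTTATA for the other strand), the CCAAT box letters (CCAAT or ATTGG) and the core letters bound by Runx factors (ACCACA or TGTGGT).
Bglap, chr3:88384467-88384716, minus strand: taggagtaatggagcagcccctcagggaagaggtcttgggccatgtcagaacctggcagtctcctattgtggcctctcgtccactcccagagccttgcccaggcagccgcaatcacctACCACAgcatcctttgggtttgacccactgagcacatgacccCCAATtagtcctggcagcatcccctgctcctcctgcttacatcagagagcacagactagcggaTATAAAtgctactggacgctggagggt
Ibsp, chr5:104299037-104299286, plus strand: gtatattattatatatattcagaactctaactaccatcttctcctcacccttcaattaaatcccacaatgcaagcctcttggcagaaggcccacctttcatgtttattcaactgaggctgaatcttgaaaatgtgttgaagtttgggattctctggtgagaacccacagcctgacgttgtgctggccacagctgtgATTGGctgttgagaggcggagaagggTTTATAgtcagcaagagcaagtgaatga

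The TATA letters began 27 bases before the start in Bglap and 28 bases before it in Ibsp, there on the other strand. CCAAT letters began 90 bases before the start in Bglap and, on the other strand, 54 in Ibsp. The Runx letters were present in Bglap (132 bases before the start) and in a window of Spp1 (128 bases), and did not occur in the Ibsp window. None of the 3 motifs overlapped another in the printed windows. Over 32851 windows of the same length across the genome, TATA letters were found in 12.4%, CCAAT letters in 33.8% and the Runx letters in 14.0%. These matches describe the letters only, since binding was not measured.

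Libraries held between 77127 and 169774 counts, and 6044 to 9273 genes had at least 1 count. The highest count of any gene was 282 to 303 in every library, whatever its depth. Kcnq1ot1, with 279 to 303 counts, thus ran from 1662 CPM in the deepest to 3903 CPM in the shallowest library. CPM of genes near that count therefore follow depth, and the cause was not tested. No bone matrix gene exceeded 96 counts. A count of 0 allows up to 3 counts, which is 38.9 CPM (counts-per-million units) in the library with the fewest counts and 17.7 CPM in that with the most. Each replicate is 1 mouse. Elsewhere CPM are on library sizes scaled by the trimmed mean of M-values (TMM). In cells from a sort, fewer osteoblasts among the cells and less RNA per osteoblast cannot be told apart. No level is compared between genes, because capture of 3′ ends can differ from transcript to transcript.

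The bone matrix genes held between 0.0832% and 0.212% of the counts in osteoblasts sorted for an osteocalcin reporter. The 10 genes together made up 0.105% ± 0.0290 of the counts in tumor-bearing (SD, n = 4) and 0.152% ± 0.0522 in tumor-free mice (SD, n = 3). The share was 0.212% in tumor-free replicate 1 (exact binomial 95% interval 0.185 to 0.243%), 0.124% in replicate 2 and 0.121% in replicate 3. In the tumor-bearing mice it was 0.147% in replicate 1 (0.121 to 0.176%), 0.0832% in replicate 2, 0.0872% in replicate 3 and 0.104% in replicate 4. Tumor-free replicate 1 was thus the highest library, and 3 of the 4 tumor-bearing libraries were below all tumor-free ones, while tumor-bearing replicate 1 lay inside the tumor-free range. The intervals cover counting error only.

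**Figure D1:**
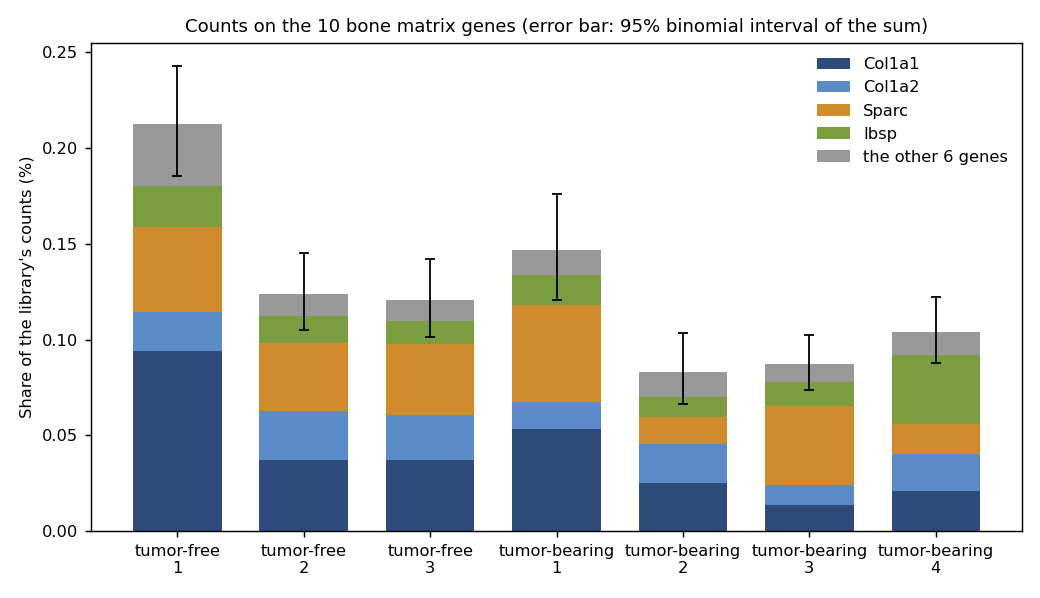
Share of each library's counts (y axis, percent) on Col1a1, Col1a2, Sparc, Ibsp and the other 6 bone matrix genes in the 3 tumor-free and 4 tumor-bearing libraries; the error bar is the exact binomial 95% interval of the sum. The sum is lowest (0.0832%) in tumor-bearing replicate 2 and highest (0.212%) in tumor-free replicate 1, where Col1a1 alone is 44.2% of it.

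Between 84.1% and 91.2% of these counts fell on Col1a1, Col1a2, Sparc and Ibsp. Col1a1 alone was 44.2% of them in tumor-free replicate 1 and 15.5% in the third tumor-bearing library, its extremes. By count among the 23725 IDs, Col1a1 ranked between 155.5 and 1837 (ties averaged), Sparc between 579.5 and 1631, Ibsp between 800 and 2043 and Col1a2 between 1097.5 and 2152. Bgn and Spp1 stood at best at ranks 2229 and 1734, Alpl at 2687 and each osteocalcin gene at 5185.

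Tumor-bearing and tumor-free mice were compared to see whether matrix transcripts of osteoblasts differ when a tumor grows in the lung. None of the 4 bone matrix genes tested passed edgeR's quasi-likelihood test, fitted with an age term (adjusted p = 0.990 each), and none of the 2495 genes tested did (0.0% called). At an unadjusted p under 0.05 edgeR had 70 genes (2.81%), 47 of them lower with a tumor (1.88%), and none of the 4; DESeq2 called 0 genes (0.0%) with 49 unadjusted (1.96%). Log2 fold changes, tumor-bearing over tumor-free, were below 0 for 3 of the 4 and above 0 for Ibsp, with a median of -0.53. Over all genes tested 49.1% were below 0 and the median was 0.01. The 4 are those of the 10 with enough counts. In each of the 10 the CPM of both groups overlapped; over all genes tested 83 (3.33%) did not overlap, 40 of them lower (1.6%) and 43 higher (1.72%) with a tumor.

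**Figure D2:**
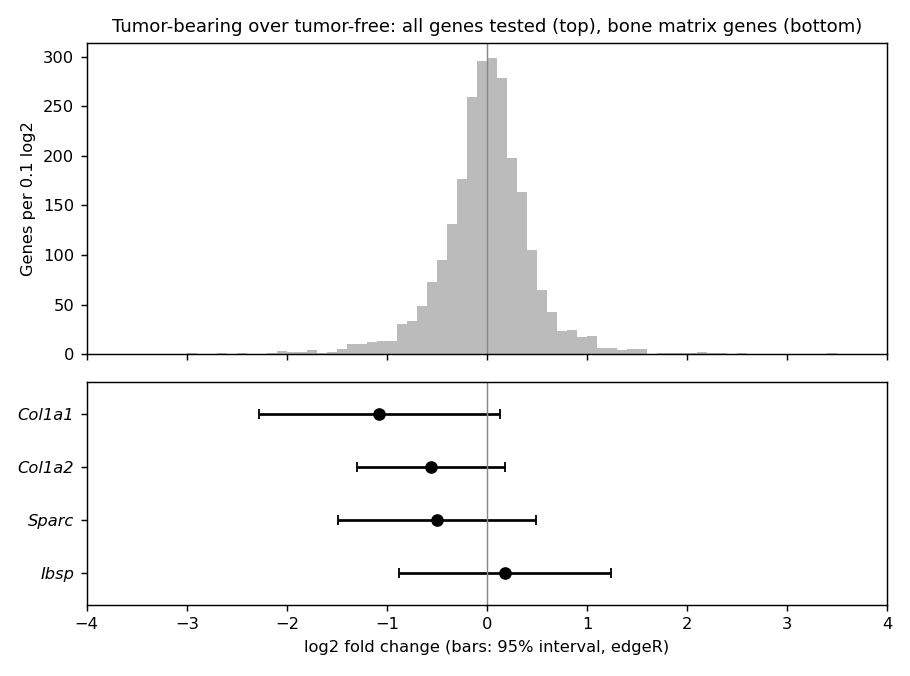
Top, log2 fold changes of all 2495 genes tested (x axis; y axis, genes per 0.1 log2); bottom, those of the 4 bone matrix genes tested with their 95% intervals from edgeR. All 4 intervals include 0, from -2.28 to 0.13 for Col1a1 to -0.87 to 1.24 for Ibsp.

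On mm10, Col1a1 (chromosome 11, 94936224 to 94953042) varied most between mice among the 4 members tested, by 7.37 times from lowest to highest. It had 945 CPM in tumor-free replicate 1 (96 counts; Poisson 95% interval 766 to 1154 CPM), 389.7 CPM in replicate 2 (46 counts) and 361 CPM in replicate 3 (44 counts). Tumor-bearing replicates 1 to 4 had 549.9, 262, 128 and 206 CPM, from 41, 25, 23 and 30 counts. Tumor-bearing replicates 2 to 4 lay below every tumor-free library and tumor-bearing replicate 1 above 2 of the 3, so the groups overlapped. The means were 286 ± 184 CPM with a tumor (SD, n = 4) and 565 ± 329 CPM without (SD, n = 3), a log2 fold change of -1.08 (SE 0.51, 95% interval -2.28 to 0.13, unadjusted p = 0.0724 in edgeR). The gene stood 125th of 2495 by p. Without tumor-free replicate 1 the log2 fold change was -0.57.

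Col1a2 (chromosome 6, 4505618 to 4541543) was steadier. Tumor-free replicates 1 to 3 had 207, 263 and 229.7 CPM (21, 31 and 28 counts), and tumor-bearing replicates 1 to 4 had 148, 209.7, 100.4 and 185 CPM (11, 20, 18 and 27 counts). All tumor-bearing libraries except replicate 2 lay below the tumor-free ones, and replicate 2 exceeded the lowest of those by less than 3 CPM. The means were 161 ± 47.6 CPM (SD, n = 4) against 233 ± 28.1 CPM (SD, n = 3), a log2 fold change of -0.56 (SE 0.32, 95% interval -1.30 to 0.18). Both collagen chains therefore had a lower mean with a tumor, and neither difference passed the test. Without tumor-bearing replicate 3 the Col1a2 value was -0.37.

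The balance of counts between the chains differed between mice more than between groups. For every count of Col1a2 there were 4.49 of Col1a1 in tumor-free replicate 1 (95% interval 2.83 to 7.72) and 3.61 in tumor-bearing replicate 1 (1.88 to 8.04). In the other 5 libraries the ratio lay between 1.11 and 1.56: it was 1.48 and 1.56 in tumor-free replicates 2 and 3, and 1.24, 1.27 and 1.11 in tumor-bearing replicates 2 to 4. The high libraries, 1 of each group, were both 31 weeks old and carry the same replicate number, which the labels do not tie to a litter, batch or day. On the log2 scale the mean ratio was 0.67 ± 0.80 with a tumor (SD, n = 4) and 1.12 ± 0.90 without (SD, n = 3). The difference of -0.46 was within the spread between mice: all 35 ways to split the libraries gave an exact permutation p = 0.457, two-sided, where 0.0286 is the lowest this design allows. Without tumor-free replicate 1 the difference was 0.063. The absolute size of the ratio depends on how well each 3′ end is captured and is not read as a ratio of chains.

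**Figure D3:**
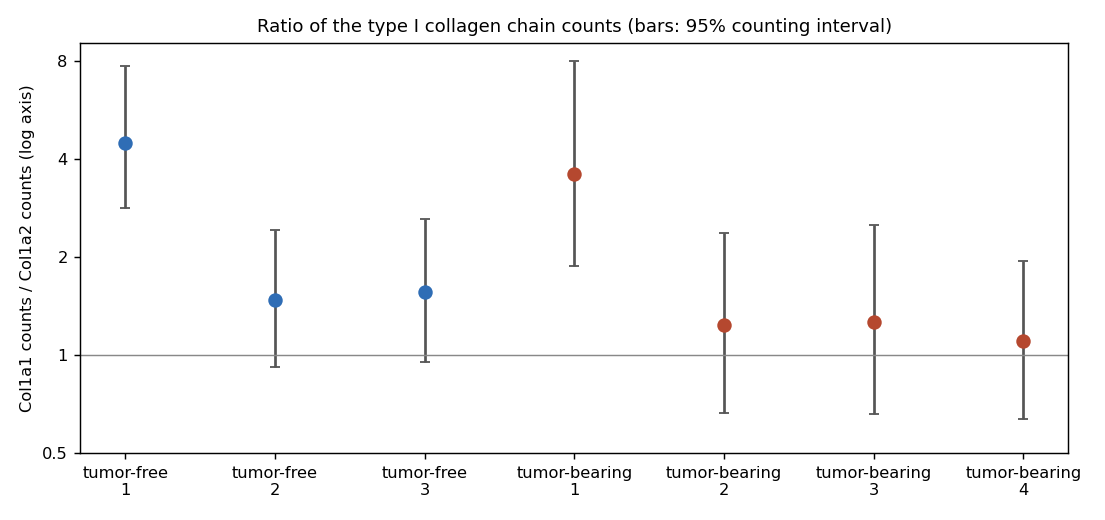
Col1a1 counts divided by Col1a2 counts (y axis, log2-spaced, 0.5 added to each count) in the 3 tumor-free (blue) and 4 tumor-bearing (red) libraries, with exact 95% counting intervals. Replicate 1 of each group stands at 3.61 or above and the other 5 libraries between 1.11 and 1.56.

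Sparc (chromosome 11, 55394159 to 55420080) was even in the tumor-free mice and split the tumor-bearing mice. Tumor-free replicates 1 to 3 had 443, 373 and 361 CPM (45, 44 and 44 counts). Tumor-bearing replicates 1 and 3 had 523 and 390.3 CPM (39 and 70 counts), inside or above that range, whereas replicates 2 and 4 had 147 and 151 CPM (14 and 22 counts). The coefficient of variation was 11.3% without and 61.4% with a tumor; no test of this difference was made. Group means were 303 ± 186 CPM (SD, n = 4) and 392 ± 44.4 CPM (SD, n = 3), with a log2 fold change of -0.50 (SE 0.43, 95% interval -1.49 to 0.49). It became -0.28 when tumor-bearing replicate 2 was left out, -0.21 for tumor-bearing replicate 4 and -0.22 for tumor-free replicate 3. Leaving out either 23-week mouse leaves the other one to be fitted by the age term alone.

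Bgn, on the X chromosome (73483601 to 73495936), had too few counts to be tested. Tumor-free replicates 1 to 3 had 9, 6 and 5 counts and tumor-bearing replicates 1 to 4 had 2, 3, 7 and 14. The highest value, 95.9 CPM, and the lowest, 26.8 CPM, were both in tumor-bearing mice. Means were 48.3 ± 32.1 CPM (SD, n = 4) and 60.2 ± 25.1 CPM (SD, n = 3), and the pooled counts gave a ratio of 0.90, with a counting interval of 0.48 to 1.69. On the log2 scale this was -0.16. Its sign turned when tumor-free replicate 1 (0.20) or tumor-bearing replicate 3 (0.039) was left out, and it was -0.77 when tumor-bearing replicate 4 was. In the 31-week mice alone it was -0.99.

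Ibsp and Spp1 are neighbours on chromosome 5 (104299287 to 104311472 and 104435111 to 104441053). Ibsp had 217, 144 and 115 CPM in tumor-free replicates 1 to 3 (22, 17 and 14 counts) and 161, 105 and 117 CPM in tumor-bearing replicates 1 to 3 (12, 10 and 21 counts). Tumor-bearing replicate 4 stood apart with 349 CPM (51 counts; 260.2 to 459.5 CPM by counting error), whereas the tumor-free mouse of the same age had the lowest of the tumor-free values. Means were 183 ± 114 CPM (SD, n = 4) and 158 ± 52.4 CPM (SD, n = 3), with a log2 fold change of 0.18 (SE 0.46, 95% interval -0.87 to 1.24). The sign depended on the 23-week mice: the value was -0.52 in the 31-week mice alone. It was -0.51 when only tumor-bearing replicate 4 was left out and -0.52 when only tumor-free replicate 3 was. In the latter fits the age term takes up the other 23-week mouse, so all these values compare the 31-week mice only. They are not separate checks. The log2 fold change was also -0.28 with the replicate number as a block, a fit without tumor-bearing replicate 4, and 0.60 without tumor-free replicate 1.

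Spp1, which macrophages and osteoclasts also make, had 14, 4 and 3 counts in tumor-free replicates 1 to 3 and 3, 4, 3 and 1 in tumor-bearing replicates 1 to 4. Tumor-free replicate 1, at 138 CPM, was the only library above 42 CPM. Means were 26.4 ± 17.4 CPM with (SD, n = 4) and 65.4 ± 62.9 CPM without a tumor (SD, n = 3). The ratio of pooled counts was 0.36, with a counting interval of 0.16 to 0.78 that leaves out the spread between mice. On the log2 scale it was -1.47, and -0.39 without tumor-free replicate 1. Of the other genes of this chromosome 5 cluster of matrix phosphoproteins, Dmp1 had 0 to 2 counts in a library, and Mepe and Dspp 0 to 1.

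Alpl, the mineralization enzyme (chromosome 4, 137741731 to 137796384), had 7, 4 and 1 counts in tumor-free replicates 1 to 3 and 2, 4, 2 and 1 in tumor-bearing replicates 1 to 4. Means were 21.7 ± 16.0 CPM (SD, n = 4) and 37.0 ± 30.5 CPM (SD, n = 3), and the groups overlapped. The log2 ratio of pooled counts was -0.95, with a counting interval of the ratio from 0.19 to 1.34, and it was -0.20 without tumor-free replicate 1. When the filter on low counts was lifted, edgeR gave Spp1 (unadjusted p = 0.0303) and Alpl an adjusted p = 0.793 each and Bgn an adjusted p = 0.954.

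The osteocalcin genes, whose coding ends are printed above, had 17 counts together over all 7 libraries. Their sum was 3, 0 and 4 counts in tumor-free replicates 1 to 3 and 3, 2, 4 and 1 in tumor-bearing replicates 1 to 4. Bglap alone had 0 to 2 counts in a library and Bglap2 and Bglap3 0 to 1 each. The 0 of tumor-free replicate 2 allows up to 24.4 CPM. With every library at or near the limit of detection, a difference in osteocalcin was not detectable at this depth and none is given.

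**Figure D4:**
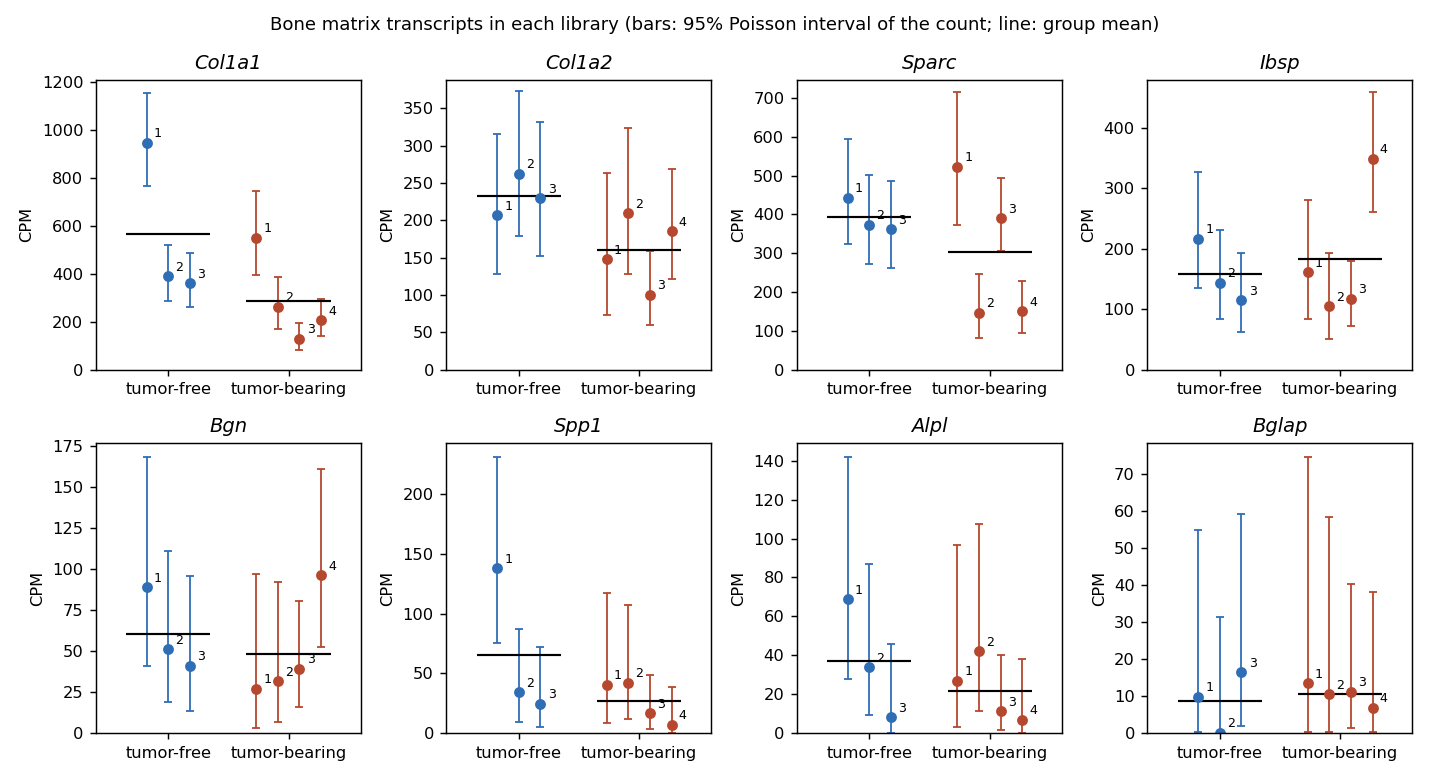
CPM (y axis, TMM-scaled) of 8 bone matrix genes in the 3 tumor-free (blue) and 4 tumor-bearing (red) libraries, numbered by replicate, with the Poisson 95% interval of each count and the group mean as a line. Tumor-free replicate 1 is the highest library for Col1a1 and Spp1, at 945 and 138 CPM, and tumor-bearing replicate 4 for Ibsp, at 349 CPM.

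How far mice of a group differed beyond counting error was measured as chi-square per degree of freedom within groups, which is near 1 where counting alone sets the spread. It was 16.5 for Col1a1, 7.48 for Sparc and 6.48 for Ibsp, and 1.39 for Col1a2. Of the genes tested with a mean count within 2-fold, 83.7% had a lower value than Col1a1 (of 1115), 73.1% than Sparc (of 1148), 84.6% than Ibsp (of 1433) and 41.8% than Col1a2 (of 1397). Col1a2 was thus the only member tested whose mice differed by little more than counting. Spp1 (3.67), Alpl (2.12) and Bgn (1.99) lay above 1, and Bglap (0.42), Bglap2 (0.59) and Bglap3 (0.76) below it.

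**Figure D5:**
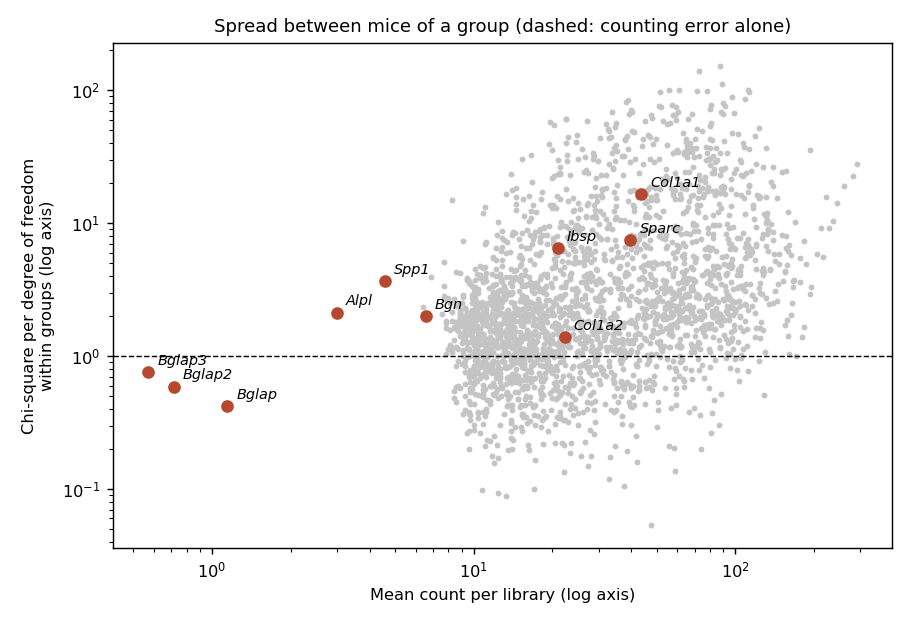
Chi-square per degree of freedom within groups (y axis, log) against the mean count per library (x axis, log) for all genes tested (grey) and the 10 bone matrix genes (red); the dashed line at 1 is counting error alone. Col1a1 stands at 16.5 and Col1a2 at 1.39.

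The members did not rise and fall together across mice to a degree that 7 libraries could show. Over the 6 pairs of the 4 genes tested, on log2(CPM + 10), the highest Pearson r was 0.49 for Col1a1 with Sparc (Spearman rho 0.57; exact permutation p = 0.264 and 0.200, adjusted over the 6 pairs 0.797 and 0.556). Col1a1 with Col1a2 also had r = 0.49 (rho 0.32; exact permutation p = 0.266 and 0.498, adjusted 0.797 and 0.556). Without the 2 libraries farthest from the median of Col1a1, tumor-free replicate 1 and tumor-bearing replicate 3, r became 0.95 for Sparc and -0.22 for Col1a2, so the link of the collagen chains rested on those libraries. Col1a2 with Sparc had r = -0.22 (rho -0.43; exact permutation p = 0.681 and 0.354, adjusted 0.845 and 0.556), and r = 0.60 without tumor-bearing replicates 1 and 3. The pairs of Ibsp had r = 0.17 with Col1a1, 0.070 with Col1a2 and -0.22 with Sparc (rho 0.29, -0.32 and 0.39; lowest exact permutation p = 0.396), and r = -0.44, -0.63 and 0.61 without the 2 libraries farthest from the median of the partner. On deviations from the group means r ran from -0.75 (Col1a2 with Sparc, exact permutation p = 0.0540, adjusted 0.324) to 0.33. Only 5 mice were 31 weeks old and 2 were 23 weeks, too few for a correlation within an age.

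By likeness of profile to Col1a1 among the other 2494 genes tested, Sparc stood 238th and Col1a2 246th, and Ibsp 784th. The genes with the highest r over the 7 libraries were Stxbp4 (r = 0.91), Spata13 (0.90), Eif4e2 (0.89), Nhlrc4 (0.89) and Agpat4 (0.89). They were picked as the highest of 2494, so no p is given.

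Genes that work with these matrix proteins were mostly too sparse to test. Of 35 other bone matrix and mineralization genes 6 could be tested and none passed. All 6 were below 0, as were 49.1% of all genes tested. Their median log2 fold change was -0.26, against 0.01 over all genes tested. Pdpn, a membrane glycoprotein of early osteocytes, had 187 ± 59.2 CPM (SD, n = 4) against 241 ± 71.5 CPM (SD, n = 3; log2 fold change -0.42, SE 0.34). For Phex, an endopeptidase of osteoblasts and osteocytes that restrains FGF23, each tumor-bearing library lay below each tumor-free one (129 ± 41.2 against 172 ± 7.05 CPM; -0.35, SE 0.30), as for 1.6% of all genes tested. Dcn, the proteoglycan decorin, had -0.34 (SE 0.38; -0.0100 without tumor-free replicate 1), and Smpd3, a sphingomyelinase needed for mineralization, -0.18 (SE 0.34), or 0.10 without tumor-free replicate 1.

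Of 29 genes for partner chains, assembly and secretion of type I collagen 4 could be tested, 1 below and 3 above 0, with a median of 0.13, and none passed. P4ha1, a subunit of the prolyl hydroxylase that stabilises the triple helix, had 216 ± 133 CPM (SD, n = 4) against 321 ± 211 CPM (SD, n = 3; log2 fold change -0.82, SE 0.54, between -1.34 without tumor-free replicate 1 and -0.35 without tumor-free replicate 2). Mia3 (TANGO1), which exports procollagen from the endoplasmic reticulum, had 0.57 (SE 0.44), and Col5a1, a type V collagen chain of mixed fibrils, 0.17 (SE 0.35). Loxl2, a crosslinking oxidase, had 0.092 (SE 0.21, or -0.033 without tumor-bearing replicate 1). Its CPM were highest (1757) in that library, which had the fewest counts, and lowest (1115) in tumor-bearing replicate 3, which had the most. The reason was not tested. Of 19 integrins and enzymes that bind or cut bone matrix only Itgb3 (0.046, SE 0.37) and Mmp14 (0.0041, SE 0.27) could be tested, and neither passed.

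The label of the cells was checked against markers. Of 11 lineage genes 3 could be tested and none passed: Pth1r, the parathyroid hormone receptor (log2 fold change -0.55, SE 0.24), Runx2, the factor that specifies osteoblasts (-0.46, SE 0.37, or -0.079 without tumor-free replicate 1), and Msx2, a homeobox factor (0.27, SE 0.50, or -0.19 without tumor-free replicate 1). For Pth1r, which had 11 to 31 counts, the tumor-bearing libraries all lay below the tumor-free ones, as for 1.6% of all genes tested. Sp7, which acts after Runx2, had 0 to 2 counts. The 8 osteoblast markers, which include Col1a1, Col1a2, Ibsp, Alpl and Bglap, summed to 747 to 1172 CPM with and 1165 to 2019 CPM without a tumor. Of the 5 osteocyte markers, Phex held most of the counts.

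Marker lists of other cells gave the following beside these results. Pecam1, Kdr and Emcn of endothelium and Pf4 and Ppbp of platelets, cells that can also make Sparc, had 0 counts everywhere; Cdh5 of endothelium had 1 count in each of 2 libraries and Itga2b of platelets 3 counts in tumor-free replicate 3. Ptprc, which encodes CD45, had 0 to 2. Of 8 macrophage and osteoclast genes Adgre1, Cd68, Ocstamp and Mmp9 were at 0; the list summed to 379 to 445 CPM with and 373 to 427 CPM without a tumor, nearly all from Itgam (19 to 45 counts) and Csf1r (8 to 24 counts). Of the leukocyte lists, the B cell genes were at 0 and the T cell genes, mostly Cd3d, summed to 151 to 268 CPM with and 158 to 288 CPM without a tumor. Erythroid genes (5 of 6 listed were in the files) summed to 66.9 to 107 CPM with and 110.1 to 177 CPM without a tumor. Each tumor-bearing library was lower, the closest being tumor-bearing replicate 1 (8 counts) and tumor-free replicate 2 (13 counts). How often sums of other genes separate in this way was not tested. Col1a1 and Col1a2 had lower means with a tumor, but their groups overlapped. Among the erythroid genes, the globin gene Hba-a2 had 2 to 11 counts, the highest in tumor-free replicate 1, and Hbb-bs 2 to 5. Of 6 chondrocyte genes Col10a1 was at 0, and the list summed to 604 to 2862 CPM with and 869.6 to 1073 CPM without a tumor. Its highest library was tumor-bearing replicate 2, with 166 counts of Sox9 and 92 of Col2a1, where Sparc and Ibsp were at their lowest. Col1a2 was there at the highest of its tumor-bearing values (209.7 CPM). Sparc was nearly as low (151 CPM) in tumor-bearing replicate 4, which had 1 count of Col2a1 and the highest Ibsp (349 CPM). Acan, the cartilage proteoglycan of the same list, had 1 to 13 counts and went the other way. It had 73.4 CPM in tumor-bearing replicate 2, and every tumor-bearing library lay below every tumor-free one. Such a separation held for 1.6% of the genes tested, and Acan had too few counts to be among them. The 6 marrow stroma genes summed to 664 to 966 CPM with and 620.3 to 738 CPM without a tumor, most of it from Lepr (58 to 123 counts), with Adipoq at 0. The 5 fibroblast and periosteum genes summed to 121 to 136 CPM with and 82.0 to 226 CPM without a tumor, with Thy1 and Ly6a at 0. Neutrophil genes had no count with a tumor and 1 in each tumor-free library, too few to compare the groups. Where 1 or 2 genes hold most of a sum, the list does not show that the cells it is named for were present. The part of any other cells in the bone matrix values was not tested.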

How the data were processed

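Libraries of transcript 3′ ends were made from 2000 sorted cells per mouse by a CEL-Seq variant in which molecules carry unique identifiers, per the labels' protocols. Per the submitters' processing notes, mm10 was the build and TopHat2 2.0.10 and SAMtools were among the tools; the sources used here do not give the counting program, its gene models, the strand setting or any collapsing by identifier. The authors deposited raw counts, 1 whole number for each Entrez ID and library, with no normalization. Symbols came from RefSeq (GRCm38.p6) for 23666 of 23725 IDs.

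Counts of the 7 libraries were filtered with filterByExpr (minimum count 10, minimum total 15), scaled by TMM (factors 0.960 to 1.06 on all counts) and tested with glmQLFit and glmQLFTest of edgeR 4.0.16 (robust; age as a factor; prior count 0.125) in R 4.3.3, with Benjamini-Hochberg adjustment over the 2495 genes tested at 0.05. The procedure was tested on simulated counts. Confidence intervals are at 95% and cover counting error only, except those of edgeR. Pooled ratios divide summed counts by summed scaled library sizes. Exact permutation tests and correlations were computed with numpy 2.4.6 and pandas 2.3.3. Ranks for the correlations, counting intervals and the adjustment over pairs used SciPy 1.17.1. P-values of edgeR and DESeq2 set the group difference against the spread between mice, estimated with information shared over genes. Those of the permutation tests come from rearranging the 7 libraries.

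The members and lists were chosen with earlier results of these data known. Genes named beyond the members were, in each list, up to 4 with the smallest p, the 5 most like Col1a1, and Ptprc, Pecam1, Csf1r, Pf4 and Hbb-bs; Dmp1, Mepe, Dspp, Sp7 and other marker genes were named after their values were seen. 1 gene of the lineage list is not reported here. The alternatives tried were DESeq2 1.42.0, a block for the replicate number (tumor-bearing replicate 4 left out), a fit without age, a fit of 31-week mice, RLE scaling, total counts, no filter, a stricter filter (30 counts in 3 libraries), no robust estimation and each library left out.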

Additional observations from a re-analysis of the deposited data

Results flagged for a closer look

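In the tumor-bearing group, the log2 ratio of Col1a1 to Col1a2 counts of replicate 1 stood far from the other 3: its gap to the nearest was 0.885 of the group's range, above Dixon's 95% critical value for 4 samples. Of 11 such groups of values examined this was the only one. At this level the rule flags about 1 in 20 groups when nothing is unusual, and the 11 groups share libraries. What lies behind the hit was not tested. Only groups of 4 were examined. Among the tumor-free mice, replicate 1 had a ratio of 4.49, against 1.48 and 1.56 in replicates 2 and 3.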

How the results depend on the processing

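The count of genes called was 0 under every alternative run, with 37 (replicate block) to 456 (no filter on low counts) genes at an unadjusted p under 0.05. Col1a1, Col1a2 and Sparc kept their direction throughout, and none of the 4 members tested was called (lowest adjusted p = 0.793 in edgeR and DESeq2 fits). With the replicate number as a block the log2 fold changes were -0.94, -0.68, -0.27 and, turned in sign, -0.28 for Ibsp; Ibsp also turned in 31-week mice alone (-0.52). The stricter filter left Col1a2 and Ibsp with no value. Deviations from the group means had r of -0.20, -0.12 and -0.14 for same-numbered libraries of the 2 groups. For differently numbered ones r ran from -0.26 to 0.24. With so few pairs and this spread, the values cannot tell whether the numbers pair the mice. Replicate 3 was 31 weeks old in the tumor-bearing and 23 weeks in the tumor-free group.

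Leaving out each library in turn gave -1.51 to -0.57 for Col1a1, -0.74 to -0.37 for Col1a2, -0.75 to -0.21 for Sparc and -0.52 to 0.60 for Ibsp. It gave -0.54 to 0.10 for Smpd3, -0.033 to 0.20 for Loxl2, -0.15 to 0.28 for Itgb3, -0.11 to 0.26 for Mmp14 and -0.19 to 0.65 for Msx2. With no turn in sign it gave -0.78 to -0.079 for Runx2, -0.73 to -0.0100 for Dcn, -1.34 to -0.35 for P4ha1, -0.60 to -0.14 for Pdpn and 0.23 to 0.88 for Mia3. The difference in the log2 ratio of Col1a1 to Col1a2 ran from -0.85 to 0.063, and the share of counts on the 10 genes, tumor-bearing over tumor-free, from 0.60 to 0.86 around 0.69. Correlations ran from -0.11 to 0.65 (Col1a1 with Col1a2), -0.075 to 0.84 (Col1a1 with Ibsp), -0.35 to 0.19 (Col1a2 with Ibsp) and -0.69 to 0.64 (Sparc with Ibsp). The cause of these shifts was not tested. Depth limits Spp1, Alpl, Bgn and osteocalcin, with 17 (osteocalcin, summed) to 46 (Bgn) counts over 7 libraries.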
